A study of Saccharomyces cerevisiae with 16 samples.

Results

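The cytosolic ribosomal protein genes are the genes that encode the proteins of the large (RPL) and small (RPS) subunit of the ribosome in the cytosol of *Saccharomyces cerevisiae*. Members were taken by name, as every *S. cerevisiae* probe set whose gene symbol is RPL or RPS followed by a digit and, where there is one, the copy letter A or B. This gave 142 probe sets for 122 genes, among 5498 probe sets for 5449 genes that were tested. Among the 142, 77 probe sets report 70 genes of the large subunit and 65 report 52 genes of the small subunit. For 9 gene pairs only 1 copy had a probe set under its own symbol. Most yeast ribosomal proteins are encoded by a pair of near-identical copies, so 29 of the 142 probe sets carry the array's mark for probes that match more than one transcript. Values of these 29 are uncertain as to the copy, and the other 113 are treated here as belonging to the copy they are named for.

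Ribosomal protein transcripts are among the most abundant in a growing yeast cell. Their transcription is driven by Rap1, Fhl1, Ifh1 and Sfp1, rises with nutrient supply through the TOR and protein kinase A pathways, and is shut down together when cells starve or are stressed. Many of the genes hold introns, and a few of the proteins bind their own pre-mRNA and block its splicing.

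The study asked which genes respond to Mss11, a transcription factor of flocculation and invasive growth, and the data are 16 Affymetrix Yeast Genome 2.0 arrays, 2 for each of 8 conditions. S288c (BY4742, *MATα*, with the alleles *his3Δ1*, *leu2Δ0*, *lys2Δ0* and *ura3Δ*, whose number differs between the labels of the 4 arrays) carried the multicopy vector YEpLac195 either empty, as the wild type, or with *MSS11* (2μ-*MSS11*). Σ1278b (*MATα*, with *ura3-52* and with *hisG* in place of *his3*, *leu2* and *trp1*) carried the empty vector as the wild type or 2μ-*MSS11*, and its *mss11* deletion, in which the marker *LEU2* replaces the gene, carried the empty vector. A separate set of 6 arrays of Σ1278b holds a wild type b, again with the empty vector, and 2 conditions whose titles read *FLO8* overexpressed and *flo8* deleted. These are named here by title because the plasmid field places the *FLO8* plasmid in the arrays titled deleted and the empty vector in those titled overexpressed. All cultures grew in synthetic medium with glucose, to early stationary phase by the labels and to the mid-exponential phase by the methods of the study.

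Values are log2 of the deposited intensity of each probe set, and a change is the log2 difference from the wild-type arrays of that strain and array set. A member is called where the limma adjusted p is under 0.05. The targeted genes were checked first. *MSS11* was higher with the plasmid in both strains and lower in *mss11*, whereas *FLO8* stood at 15.71 and 12.90 on the arrays titled *FLO8* overexpressed, 11.06 and 11.16 on those titled *flo8* deleted, and 11.59 and 11.63 in wild type b. The arrays form 3 sets by their lowest intensity (Σ1278b with its *MSS11* conditions, S288c, and the 6 arrays with wild type b). The median log2 intensity of all tested probe sets lay from 10.17 to 10.28, from 10.36 to 10.38 and from 11.53 to 11.56 in these sets. A source that states whether they were normalized together was not found, so levels set across sets are given with the shift of all tested probe sets.

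The S288c arrays went against their label in one respect and were uneven in another. Of the genes specific to **a** cells, which *MATα* cells keep silent, 7 of 7 were above a log2 intensity of 5 in both S288c wild-type replicates, with a summed intensity of 31300 and 33400. They summed to 13300 and 330 in the replicates with 2μ-*MSS11*, and to 122 to 255 in the Σ1278b wild type and Σ1278b 2μ-*MSS11* of the first set. In such bulk RNA, fewer cells of a type and less RNA per cell cannot be told apart. The 4 α-specific genes were expressed as well, with a median of 14.78 and 14.91 on the S288c wild-type arrays, and 2μ-*MSS11* had 13.18 and 14.22. Replicate 2 of S288c 2μ-*MSS11* also stood apart from replicate 1 beyond these genes. Over the 181 probe sets that were higher in the S288c than in the Σ1278b wild type by more than 3 on the log2 scale, it had moved 54.1% (median) of the way to the Σ1278b level, and replicate 1 had moved 8.36%. *LEU2* and *LYS2*, which BY4742 lacks, were at 2.02 and 2.03 on this replicate, near their values on the other S288c arrays. *HIS3* was at 13.54 on it, against 14.72 on replicate 1 and 14.78 and 14.79 in the S288c wild type. In the Σ1278b wild type *HIS3* was at 3.73 and 3.53. In the Σ1278b wild type *LYS2* was at 13.25 and 12.71 and *LEU2*, which its label gives as deleted, at 13.32 and 13.48. The part of these differences in the changes of the members was not tested. The main counts in S288c are given below also with single arrays left out.

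Ribosomal protein probe sets were bright on every array. Their median log2 intensity was 14.51 and 14.44 in the Σ1278b wild type, 14.54 and 14.53 in *mss11*, and 14.33 and 14.24 with 2μ-*MSS11*. In S288c the wild type had 14.24 and 13.99, and 2μ-*MSS11* had 14.36 and 14.54. The members' medians thus did not overlap between 2μ-*MSS11* and the wild type in either strain, and the order was opposite. On the 6 arrays with wild type b the median stayed within 15.42 to 15.45. The least bright member on every array was the probe set of *RPL41A*, a very short protein of the large subunit, at 5.71 to 6.97 on the 10 arrays of the first 2 sets and 10.13 to 10.96 on the 6 of the third.

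**Figure D1:**
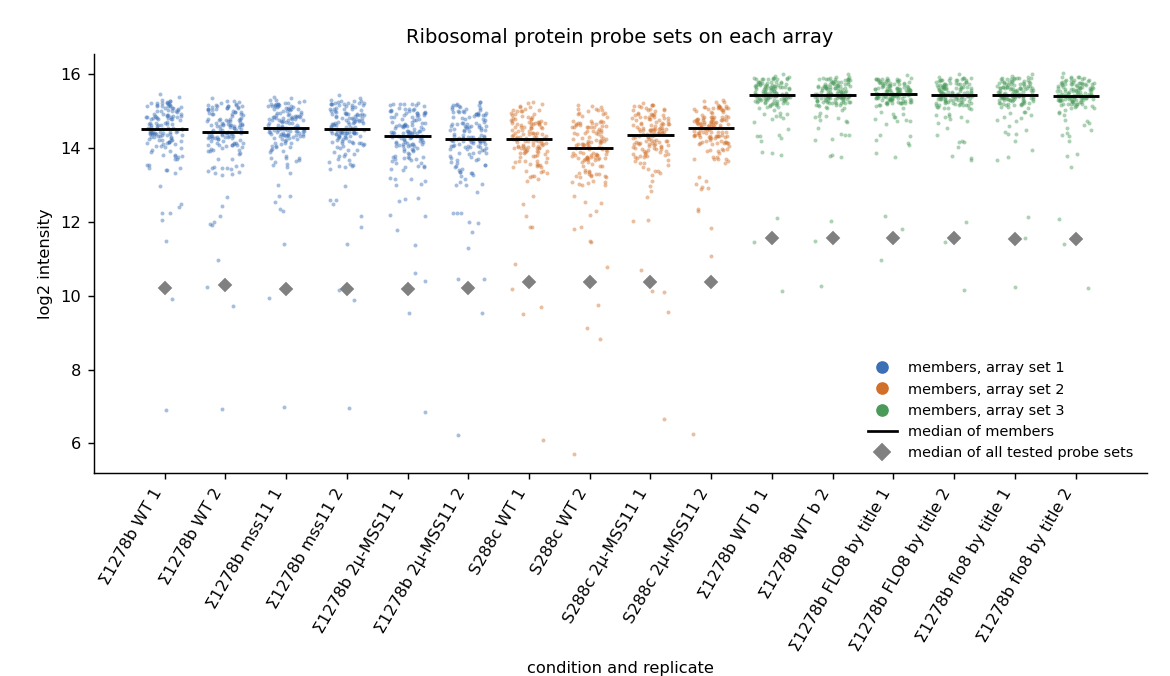
Log2 intensity (y axis) of the 142 ribosomal protein probe sets on each of the 16 arrays (x axis, condition and replicate), with a point per probe set, a black line at the median of the members and a grey diamond at the median of all tested probe sets. The members' median is lower with 2μ-*MSS11* in Σ1278b (14.33 and 14.24 against 14.51 and 14.44) and higher in S288c (14.36 and 14.54 against 14.24 and 13.99), and the arrays with wild type b lie higher as a whole.

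In S288c, 2μ-*MSS11* was accompanied by higher ribosomal protein transcripts. Of the 142 members, 38 rose and 0 fell, where 7.26% of all tested probe sets rose and 9.6% fell. By the unadjusted p, 96 were higher, against 17.1% of all tested probe sets, and 0 lower. The change was above 0 in 136 members (48.9% of all tested probe sets), with a median of 0.30 against -0.01 over all tested probe sets. Both replicates with 2μ-*MSS11* lay above both wild-type replicates for 111 members, where 21.8% of all tested probe sets did, and below them for *RPL3* alone, where 25.7% did. The large subunit (21 of 77 rose, median 0.29) and the small subunit (17 of 65 rose, median 0.33) had similar counts. The 29 shared probe sets had a median of 0.21 and the 113 others of 0.33.

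*RPS14B* is one of 2 copies for a protein of the small subunit's platform. Its log2 intensity was 12.17 and 11.87 on the wild-type arrays of this strain, and 2μ-*MSS11* had 12.98 and 12.90. The groups were apart by more than the replicates of either, and the log2 change was 0.92 (standard error 0.13, adjusted p = 0.00194). *RPS0B*, whose protein sits near the exit of the mRNA from the small subunit, went from 13.65 and 13.37 to 14.11 and 14.41, a change of 0.75 (standard error 0.16, adjusted p = 0.0131). Its partner *RPS0A* went from 13.55 and 13.30 to 13.79 and 14.22, a change of 0.58 (standard error 0.13, adjusted p = 0.017). Both copies of this gene were thus higher on each array with the plasmid, and higher on replicate 2 than on replicate 1. In the large subunit, *RPL17B*, whose protein lines the tunnel of the nascent chain, went from 13.56 and 13.32 to 13.85 and 14.30 (change 0.63, standard error 0.14, adjusted p = 0.0165). *RPL9A*, for a protein near the factor-binding side of the large subunit, went from 13.58 and 13.22 to 13.85 and 14.19 (change 0.62, standard error 0.14, adjusted p = 0.0157). These were the 5 largest changes among members that passed the test and did not overlap. The other 33 calls ran from 0.21 (*RPL43A*) to 0.55 (*RPS10A*, a shared probe set).

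The test pools the spread of all conditions, and the S288c arrays varied more than the others. Over the members, the root mean square of the SD between replicates was 0.361 for S288c 2μ-*MSS11* and 0.219 for the S288c wild type, against 0.0246 to 0.103 in the 6 Σ1278b conditions. With a variance for each condition, 0 members passed in S288c, and *RPS14B* had an adjusted p of 0.794. The count was 28 without 2μ-*MSS11* replicate 2 (median change 0.21), 107 without replicate 1 (median 0.40), 47 without wild-type replicate 1 and 2 without wild-type replicate 2, which was the brighter wild-type array for 3 of 142 members. Of the 5 genes named, *RPS14B* was the one that kept its call without any single array, and the others lost it without wild-type replicate 2 (adjusted p from 0.102 to 0.124).

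In Σ1278b, 2μ-*MSS11* was accompanied by lower ribosomal protein transcripts. Of the 142 members, 10 fell and 0 rose, where 4.17% of all tested probe sets fell and 1.05% rose. The change was below 0 in 129 members (54.6% of all tested probe sets), with a median of -0.17 against -0.03. Both replicates lay below both wild-type replicates for 111 members, where 37.2% of all tested probe sets did, and above them for *RPL15B* and the shared probe set of *RPS23A*, where 24.4% did. By the unadjusted p, 49 were lower, against 14.8% of all tested probe sets, and 0 higher. The 10 were *RPS0B*, *RPS14B*, *RPL22B*, *RPS24B*, *RPL24B*, *RPS18B*, *RPS25B*, *RPS16B*, *RPL17A* and *RPL14A*. Of these 8 are B copies and 2 are A copies, although over all members the A copies (median -0.19, 62 probe sets) and the B copies (median -0.18, 63 probe sets) had similar medians.

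*RPS0B* stood at 14.64 and 14.51 on the wild-type arrays of Σ1278b and dropped to 13.69 and 13.24 where 2μ-*MSS11* was present. This was the largest fall among the members, of 1.11 on the log2 scale (standard error 0.16, adjusted p = 0.00719). *RPS14B* went from 13.41 and 13.32 to 12.61 and 12.24, a change of -0.94 (standard error 0.13, adjusted p = 0.00621). These are the same 2 genes that led the rise in S288c. *RPL22B*, for a protein of the large subunit that represses splicing of its own pre-mRNA and that the cell can lose, went from 12.49 and 11.93 to 11.37 and 11.30 (change -0.88, standard error 0.21, adjusted p = 0.0417). *RPS24B*, of the small subunit, went from 14.63 and 14.40 to 13.97 and 13.69 (change -0.68, standard error 0.12, adjusted p = 0.0132). *RPL24B*, whose protein reaches from the large subunit towards the small one, went from 14.22 and 14.14 to 13.76 and 13.62 (change -0.48, standard error 0.12, adjusted p = 0.047). None of the 5 overlapped between the groups. All of them lost the call without wild-type replicate 1 (adjusted p from 0.0516 for *RPS14B* to 0.259 for *RPL22B*), and all but *RPS14B* lost it without 2μ-*MSS11* replicate 2 (from 0.0545 for *RPS0B* to 0.31 for *RPL24B*).

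The Σ1278b wild-type replicates differed in the same direction, with replicate 2 below replicate 1 in all but 32 of the 142 members (median difference -0.08). The count of members that fell was 0 without wild-type replicate 1, 12 without wild-type replicate 2, 5 without 2μ-*MSS11* replicate 1 and 1 without 2μ-*MSS11* replicate 2, while the median change stayed between -0.21 and -0.13. After median centring or quantile normalization 3 members fell, with medians of -0.13 and -0.10. Genes of starvation, glucose repression and stress moved in the direction opposite to the members here. Of 36 such genes 32 had a change above 0 (median 0.93), where 54.6% of all tested probe sets had one below 0. By the test 3 of them rose, where 1.05% of all tested probe sets did. Their summed intensity was 84300 and 150000 in the wild-type replicates and 172000 and 164000 with 2μ-*MSS11*. In S288c the same list summed to 165000 and 160000 in the wild type and 244000 and 89600 with 2μ-*MSS11*, so it did not separate the groups there. In this strain 1 gene of the list rose and 2 fell, where 7.26% and 9.6% of all tested probe sets did. Its median change there was -0.01, 0.70 without 2μ-*MSS11* replicate 2 (9 rose, 0 fell) and -0.50 without replicate 1 (1 rose, 15 fell). In Σ1278b it was 0.40 without wild-type replicate 1, when 1 rose and 1 fell. The part of growth state in the members' changes was not tested.

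**Figure D2:**
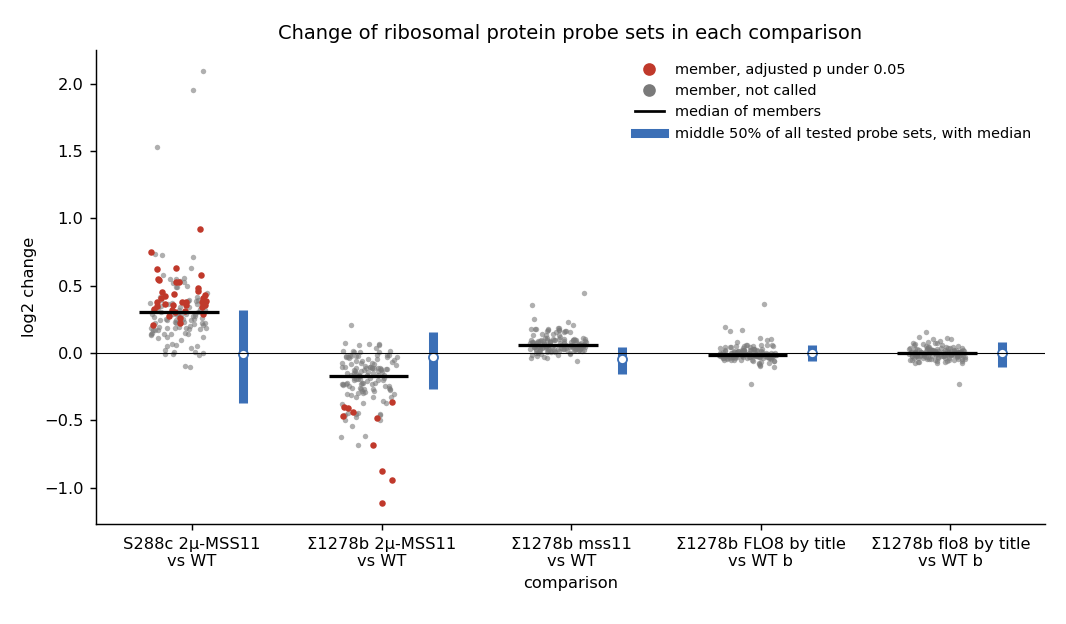
Log2 change (y axis) of each of the 142 ribosomal protein probe sets in 5 comparisons (x axis), in red where the adjusted p is under 0.05, with a black line at the members' median. The blue bar spans the middle 50% of all tested probe sets and the white circle is their median. Members lie mostly above 0 in S288c (median 0.30) and mostly below 0 in Σ1278b with 2μ-*MSS11* (median -0.17), and close to 0 in the other 3 comparisons.

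In *mss11*, 0 members passed the test by limma, where 0.127% of all tested probe sets did, and 0 had an unadjusted p under 0.05, where 2.76% of all tested probe sets did. The changes were small and mostly in one direction, with 132 of 142 members above 0 (38.5% of all tested probe sets). The median was 0.06 against -0.04 over all tested probe sets, and the changes ran from -0.06 to 0.45. Both *mss11* replicates lay above both wild-type replicates for 63 members, where 11.2% of all tested probe sets did, and below them for 3, where 24.5% did. *RPL22B* went from 12.49 and 11.93 to 12.53 and 12.60, a change of 0.36 (adjusted p = 1.0 by limma). This comparison and that of 2μ-*MSS11* share the wild-type arrays, so a low wild-type array raises both.

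The *mss11* and 2μ-*MSS11* arrays of Σ1278b can be compared with no wild-type array between them. With 2μ-*MSS11*, 28 members were lower than in *mss11* and 0 higher, where 7.82% of all tested probe sets were lower and 4.62% higher. The median difference was -0.23, and 3 members had a difference above 0, where 51.1% of all tested probe sets did. The 28 include each of the 10 that fell against the wild type. *RPL22B* differed by -1.23, *RPS0B* by -1.13 and *RPS14B* by -1.10. *RPS7B*, for a protein of the small subunit, differed by -0.81. The count was 1 to 13 when any of these 4 arrays was left out, 1 without *mss11* replicate 2 and 13 without 2μ-*MSS11* replicate 1, while the median stayed between -0.25 and -0.21.

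The change with 2μ-*MSS11* differed between the strains for 55 members, all of them with the higher change in S288c, where 10.3% of all tested probe sets had a higher and 5.64% a lower change in S288c. The median difference of the members was 0.47 (all tested probe sets 0.00), and 140 of 142 were above 0, where 50.3% of all tested probe sets were, the exceptions being *RPL15B* and the shared probe set of *RPS23A*. The change was above 0 in S288c and below 0 in Σ1278b for 123 members, where 30.9% of all tested probe sets did so. For 92, the replicates also did not overlap in either strain, where this held for 11.3%. These comparisons share no array. *RPS14B*, *RPS0B*, *RPS16B*, *RPS25B* and *RPL17A* were called in both, which is 13.2% of the 38 in S288c and 50% of the 10 in Σ1278b.

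*RPS14B* and *RPS0B* differed most between the strains, by 1.86 each (standard errors 0.18 and 0.22, adjusted p = 0.000568 and 0.0017). *RPL9A* (1.16), *RPL17B* (1.10) and *RPS0A* (1.08) followed with standard errors from 0.18 to 0.20 and adjusted p from 0.00626 to 0.00944. *RPS24B* differed by 0.97 (standard error 0.16, adjusted p = 0.00709). These 6 kept the call when any single array was left out. *RPL22B* (1.13), *RPL6B* (1.11), *RPS26B* (0.99) and *RPL23A* (0.99) passed with adjusted p from 0.0162 to 0.0333 and lost the call when any of at least 3 arrays was left out. The count was 74 without S288c 2μ-*MSS11* replicate 2, with a median difference of 0.38, and 1 member then passed in the other direction. It was 111 without S288c 2μ-*MSS11* replicate 1, 22 without S288c wild-type replicate 2, 20 without Σ1278b wild-type replicate 1, 33 without Σ1278b 2μ-*MSS11* replicate 1 and 14 without its replicate 2. With a variance for each condition it was 0. The **a**-specific genes went the other way from the members in S288c, with a median change of -4.07 there and 0.06 in Σ1278b. In the Σ1278b wild type 6 of the 7 were under a log2 intensity of 5 on both arrays, so a fall could hardly be read. In S288c the median change of these genes was -1.47 without 2μ-*MSS11* replicate 2 and -6.71 without replicate 1.

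**Figure D3:**
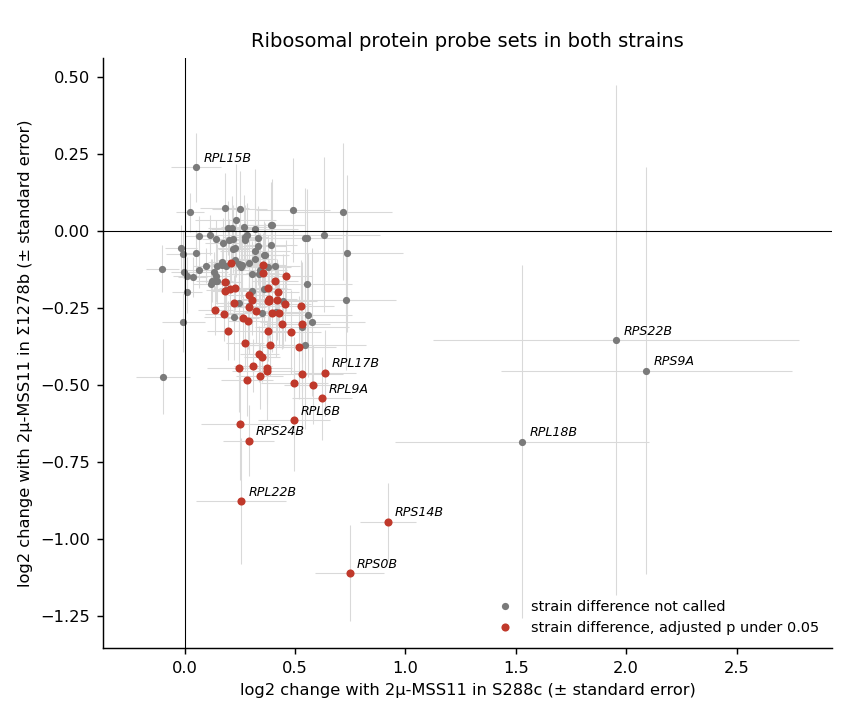
Log2 change with 2μ-*MSS11* in S288c (x axis) and in Σ1278b (y axis) of the 142 ribosomal protein probe sets, with grey bars for the standard errors and red points where the difference between the strains has an adjusted p under 0.05. Most points (123) lie right of 0 and below 0, with *RPS14B* and *RPS0B* farthest from the origin among the red points, and *RPS9A*, *RPS22B* and *RPL18B* lie far to the right with wide errors.

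The copies of a pair mostly moved the same way but not by the same amount. In 47 pairs each copy had a probe set of its own. Both copies were higher in 45 pairs in S288c and both were lower in 41 pairs in Σ1278b, and the median absolute difference between the copies' changes was 0.16 and 0.18. The difference was above 0.5 in 3 pairs in S288c and in 6 pairs in Σ1278b. These differences were not tested and are given as a description.

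In Σ1278b the widest pair was *RPS14*. Its A copy went from 15.00 and 14.98 to 14.89 and 14.89, a change of -0.10 (standard error 0.061), while the B copy changed by -0.94. In S288c the A copy went from 14.67 and 14.57 to 14.78 and 14.79 (change 0.17) and the B copy changed by 0.92. The B copy thus changed more than the A copy in both strains. The protein of either *RPS14* copy blocks splicing of the *RPS14B* pre-mRNA, and so does that of *RPL22* with *RPL22B*. *RPL22A* went from 14.51 and 14.33 to 14.17 and 14.21 in Σ1278b, a change of -0.23 against -0.88 for *RPL22B*. In S288c the copies of *RPL22* had changes of 0.25 and 0.26, and *RPL22B* overlapped between the groups (13.25 and 13.07, then 13.72 and 13.12). *RPL30*, whose protein also binds its own pre-mRNA, had changes of 0.04 in S288c and -0.15 in Σ1278b, with a standard error of 0.065 each.

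*RPL15* was the widest of 5 pairs whose copies lay on opposite sides of 0 in Σ1278b. *RPL15A* went from 14.47 and 14.32 to 14.05 and 13.80 (change -0.47, adjusted p = 0.0558), and *RPL15B* from 10.20 and 10.24 to 10.39 and 10.46 (change 0.21, adjusted p = 0.338). Neither overlapped between the groups. *RPL6B* went from 14.19 and 13.99 to 13.59 and 13.35 (change -0.61, adjusted p = 0.0616), whereas *RPL6A* had a change of -0.02. *RPS0A* changed by -0.50 (adjusted p = 0.0564) against -1.11 for *RPS0B*. In S288c the widest pairs after *RPS9* and *RPS22*, described below, were *RPS14*, *RPL31* (0.15 and 0.56 for the A and B copy) and *RPS27* (-0.01 and 0.37).

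**Figure D4:**
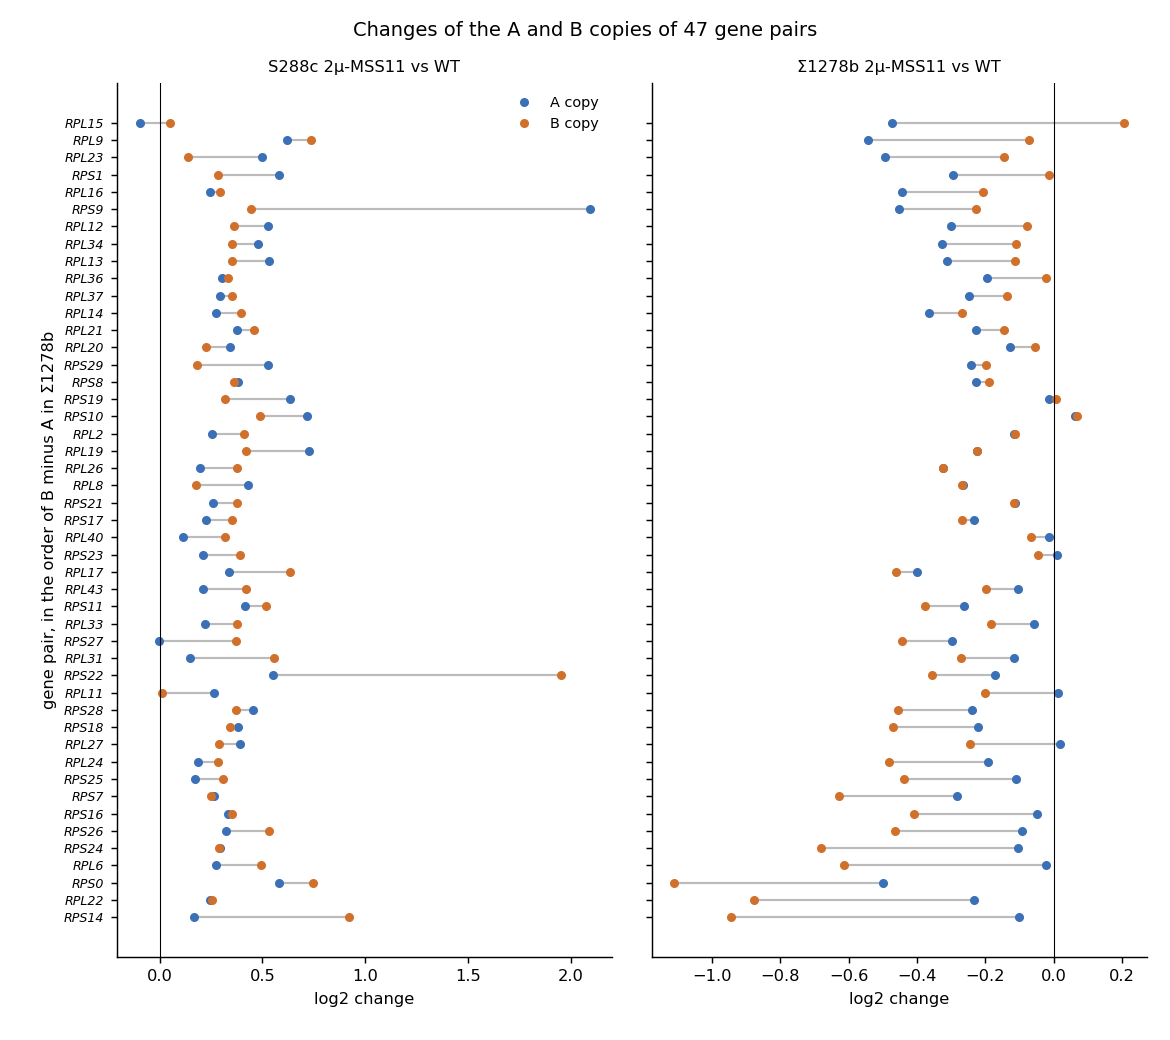
Log2 change (x axis) of the A copy (blue) and B copy (orange) of 47 gene pairs (y axis) with 2μ-*MSS11* in S288c (left) and in Σ1278b (right). A grey line joins the copies of a pair, and pairs are in the order of B minus A in Σ1278b, so that *RPL15* (-0.47 and 0.21) is at the top and *RPS14* (-0.10 and -0.94) at the bottom.

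The groups of proteins with a known place on the ribosome did not all move by the same amount. Counts with all arrays are read against the shares of all tested probe sets, 7.26% that rose in S288c and 4.17% that fell in Σ1278b. Here and in the next paragraph these shares do not apply to counts with an array left out, for which no such share is given. Proteins at the platform and the mRNA exit of the small subunit (*RPS0*, *RPS1*, *RPS14*, *RPS26* and *RPS28*) had 6 of 11 probe sets that rose in S288c (median 0.45) and 2 that fell in Σ1278b (median -0.30). The proteins of the decoding region and mRNA entry (*RPS2*, *RPS3*, *RPS15*, *RPS23* and *RPS30*) had 0 of 7 called in either strain, with medians of 0.21 and 0.01. This group leaves out *RPS9*, whose protein is also near the mRNA entry. *RPS9A* and *RPS9B* changed by 2.09 and 0.45 in S288c and by -0.45 and -0.23 in Σ1278b, and neither was called. Around the exit tunnel (*RPL4*, *RPL17*, *RPL19*, *RPL25*, *RPL26*, *RPL31*, *RPL35* and *RPL39*), 4 of 13 rose in S288c, *RPL17A*, *RPL17B*, *RPL25* and *RPL26B*, and 1 fell in Σ1278b, *RPL17A*. Of the 2 probe sets of *RPL12*, at the base of the stalk that recruits elongation factors, *RPL12A* rose in S288c (0.53) and neither fell in Σ1278b (-0.30 and -0.08).

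Near the peptidyl transferase centre, *RPL2B* rose in S288c (0.41), and *RPL3* and *RPL10* had changes of -0.10 and 0.01. The 4 probe sets of *RPL5* and *RPL11*, whose proteins bind the 5S ribosomal RNA, had 0 calls in either strain and medians of 0.10 and -0.12. The 3 of *RPL40* and *RPS31*, made as fusions to ubiquitin, also had 0 calls (medians 0.11 and -0.05). Proteins without which yeast still grows (*RPL22*, *RPL24*, *RPL29*, *RPL38*, *RPL39*, *RPL41* and *RPS25*) had 2 of 10 probe sets that rose in S288c, *RPL38* and *RPS25B*, and 3 that fell in Σ1278b, *RPL22B*, *RPL24B* and *RPS25B*. Without S288c 2μ-*MSS11* replicate 2, 4 of the 11 platform and mRNA exit probe sets rose (median 0.31) and 3 of the 13 around the exit tunnel. Without 2μ-*MSS11* replicate 1 the medians of these 2 groups were 0.57 and 0.34. That of the decoding region was 0.29 and that of the proteins that yeast can lose 0.35. Calls also appeared among the 7 probe sets of the decoding region in that fit, in which they were more frequent among the members as a whole. Without S288c wild-type replicate 1, 6 of 11, 7 of 13 and 0 of the 7 rose, and without wild-type replicate 2, 1, 0 and 0. The 3 falls in Σ1278b among proteins that yeast can lose became 0 without either array with 2μ-*MSS11*, and without Σ1278b wild-type replicate 1 none of the groups described here had a call in Σ1278b. Whether these groups differ from each other was not tested.

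The changes were wider in the less bright members. The 48 dimmest members by their mean over all arrays had median changes of 0.42 in S288c and -0.27 in Σ1278b. For the 47 brightest these were 0.18 and -0.12. The part of signal brightness in the changes was not tested. Among the 43 tested probe sets outside the members in the same range of brightness as the 47 brightest, the medians were 0.05 in S288c and -0.01 in Σ1278b.

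*RPS9A* and *RPS22B* had the widest changes of all in S288c and did not pass the test. *RPS9A*, for a protein near the mRNA entry, stood at 9.71 and 9.13 in the S288c wild type and at 10.11 and 12.91 with 2μ-*MSS11* (change 2.09, standard error 0.66, adjusted p = 0.0567). *RPS22B*, of the small subunit, stood at 10.19 and 9.75 and then at 10.14 and 13.71 (change 1.95, standard error 0.83, adjusted p = 0.12). The probe set named for *RPL18B* alone, chosen after its values were seen, stood at 9.51 and 8.82 and then at 9.55 and 11.85 (change 1.53, adjusted p = 0.09). In each of them replicate 2 was far above replicate 1, which overlapped the wild type for *RPS22B*. Without replicate 2 the change of *RPS9A* was 0.69 (adjusted p = 0.0233).

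The same probe sets were low in the S288c wild type as compared with Σ1278b. *RPS22B* stood at 13.42 and 13.38 in the Σ1278b wild type, *RPS9A* at 12.25 and 12.16, and *RPL18B* at 11.47 and 10.97. On S288c 2μ-*MSS11* replicate 2 they thus read above the Σ1278b wild type, across array sets. *RPL4B*, whose protein lines the tunnel, was the reverse and did not follow. It stood at 13.64 and 13.31 in the S288c wild type, 13.69 and 13.71 with 2μ-*MSS11*, and 9.90 and 9.71 in the Σ1278b wild type. The other copies of these genes had smaller changes in S288c, of 0.45 for *RPS9B* and 0.55 for *RPS22A*. A second probe set of *RPL18B*, shared with its copy, had a change of 0.31. Of the 20 genes with 2 or more probe sets, the gap between a gene's probe sets was widest for *RPL18B* (1.22 on the log2 scale, median over genes 0.15), and all 20 agreed in sign in S288c. In Σ1278b 16 of 20 agreed, with 2μ-*MSS11* and in *mss11* alike.

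**Figure D5:**
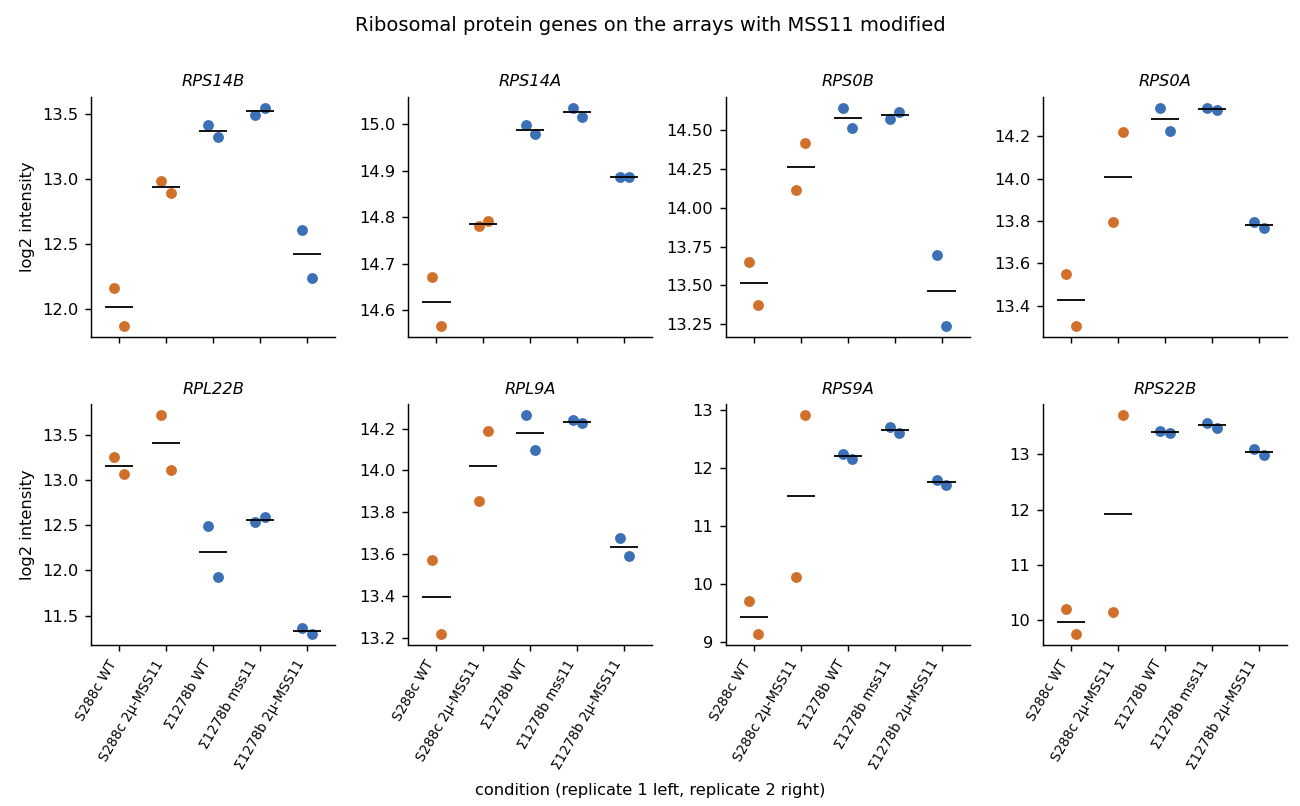
Log2 intensity (y axis of each panel, each with its own range) of 8 ribosomal protein genes on the arrays of S288c (orange) and Σ1278b (blue) with the empty vector (WT), *mss11* or 2μ-*MSS11* (x axis), replicate 1 at left and replicate 2 at right, with a black line at the mean of 2. *RPS14B* and *RPS0B* are higher with 2μ-*MSS11* in S288c and lower in Σ1278b, and *RPS9A* and *RPS22B* are, within S288c, high on replicate 2 with 2μ-*MSS11* alone (12.91 and 13.71).

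Between the wild types, members were lower in S288c than in Σ1278b, in arrays of different sets. Of 142 members 98 were lower and 5 higher, where 28.1% of all tested probe sets were lower and 31.8% higher, and the median difference was -0.36 against 0.02 over all tested probe sets. The median was -0.48 after median centring and -0.18 after quantile normalization, when 61 were lower and 8 higher. Against wild type b it was -1.33, or -0.14 after centring. The 5 that were higher were *RPL4B* (3.67), *RPL22B* (0.95), *RPL15B* (0.61), *RPL26A* (0.30) and *RPS27A* (0.28). Of the 55 members whose change differed between the strains, 52 had a difference below 0 between the wild types. Both comparisons use the same wild-type arrays with opposite sign, so a low S288c wild type raises the former and lowers the latter. By the sign alone 131 of all 142 members were lower.

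None of the members passed the test on the 6 arrays with wild type b. By limma, 0 of 142 passed with *FLO8* overexpressed and 0 with *flo8* deleted by title, where 0.0546% and 0.4% of all tested probe sets passed. By the unadjusted p it was also 0 in both, against 1.46% and 5.24%. The median changes were -0.01 and 0.00, and the largest absolute difference between the copies of a pair was 0.33 and 0.15. *RPS14B* had a log2 intensity between 14.17 and 14.22 on all 6 arrays. Between the arrays titled *FLO8* and *flo8* 0 passed as well, where 0.8% of all tested probe sets did, and 0 by the unadjusted p, where 7.22% did. These arrays were also the most even, with a root mean square SD over the members of 0.0246 to 0.0763, and the members lay near the top of their scale.

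The wild-type sets of Σ1278b carry the same genotype and plasmid by their labels and differed in nearly all members. In wild type b 141 were higher and 0 lower, where 80.0% of all tested probe sets were higher and 2.89% lower. The members' median difference was 0.96 and that of all tested probe sets 1.21, so the members were higher by less than the median shift. After centring each array on its median 4 were higher and 76 lower (median -0.36), and after quantile normalization 24 were higher and 3 lower (median 0.19). The direction of the members relative to other genes thus depends on the scaling in this comparison, and the labels give no other difference between the sets.

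Other genes of ribosome production had medians on the same side of 0 as the members in both strains. Of 84 ribosome biogenesis genes, 17 rose in S288c (median 0.60) and 8 fell in Σ1278b (median -0.60). The change differed between the strains for 52, all with the higher change in S288c, where 10.3% of all tested probe sets had this. Counts of rises and falls here and below are again read against 7.26% of all tested probe sets that rose in S288c and 4.17% that fell in Σ1278b. This holds for counts with all arrays, and no such share is given for those with an array left out. *ENP1*, for a processing factor of the small subunit, rose by 1.14 in S288c, from 9.80 and 9.84 to 10.42 and 11.50. *PWP2*, of the same machinery, fell by 0.95 in Σ1278b, from 10.71 and 10.08 to 9.56 and 9.33. For *PWP2*, wild-type replicate 2 lay nearer to the plasmid arrays than to replicate 1. Without 2μ-*MSS11* replicate 2 of S288c the list's median was 0.22 (6 rose), and without replicate 1 it was 0.92 (78 rose). Without S288c wild-type replicate 1 or 2, 2 and 0 rose. Without Σ1278b wild-type replicate 1 or 2μ-*MSS11* replicate 2 none fell, without 2μ-*MSS11* replicate 1 there were 3 that fell, and without wild-type replicate 2 there were 41. Of the 67 probe sets of mitochondrial ribosomal proteins, 2 rose in S288c (median 0.57) and 1 fell in Σ1278b (median -0.40), a lower share than that of all tested probe sets in each. In *mss11* their median was -0.15 where that of the cytosolic members was 0.06. The median of the mitochondrial set was 9.76 on S288c 2μ-*MSS11* replicate 1 and 11.07 on replicate 2, against 9.73 and 9.69 in the wild type, and without replicate 2 its median change in S288c was -0.04, with 2 that rose and 15 that fell. Without replicate 1 it was 1.15, with 64 that rose and 1 that fell. The cytosolic members, with a median of 0.21 without that array, thus kept their direction where the mitochondrial ones did not.

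The stalk proteins are named RPP and are thus not members, and with associated genes such as *ASC1* and *STM1* they form a list of 7. In S288c 2 of the 7 rose, *RPP2A* (0.34) and *RPP1B* (0.33), and in Σ1278b 0 fell. The 2 became 0 without either S288c wild-type array, 4 without 2μ-*MSS11* replicate 1 and 1 without replicate 2. Of 26 initiation factor genes 4 rose in S288c and 4 fell in Σ1278b, and *NIP1* and *GCD2* did both. *DED1*, an RNA helicase of initiation, fell most in Σ1278b, by 2.75. In S288c 22 of the 26 rose without 2μ-*MSS11* replicate 1, 6 rose and 4 fell without replicate 2, and 2 and 1 rose without wild-type replicate 1 and 2. In Σ1278b 0 fell where wild-type replicate 1 was left out and 1 where 2μ-*MSS11* replicate 2 was. Of 9 elongation factor genes 2 rose in S288c, *ANB1* (2.47), the copy of eIF5A used without oxygen, and *HYP2* (0.44), its copy used with oxygen. The count was 6 without 2μ-*MSS11* replicate 1, when 1 fell, 3 without replicate 2 and 1 without either wild-type array. Of the dedicated chaperones and escort proteins of ribosomal proteins, *TSR4*, *YAR1* and *SQT1* rose in S288c (0.66 to 0.71), and 0 of 19 probe sets fell in Σ1278b. For these chaperones 15 rose and 2 fell in S288c without 2μ-*MSS11* replicate 1, 3 rose and 2 fell without replicate 2, and 0 and 1 rose without wild-type replicate 1 and 2. In Σ1278b 2 fell without wild-type replicate 2. Without S288c 2μ-*MSS11* replicate 2 the median changes of the initiation factors and of the chaperones were -0.01 and 0.06, in place of 0.35 and 0.46.

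Among 14 transcripts of regulators of the ribosomal protein genes, *TOR2* fell by 0.32 in S288c and *SCH9*, the kinase that signals nutrient supply downstream of TOR, fell by 0.88 in Σ1278b (adjusted p = 0.00883), from 11.66 and 11.34 to 10.79 and 10.45. The change of *SCH9* differed between the strains by 1.21 (adjusted p = 0.00536). In S288c 4 of the 14 rose and 6 fell without 2μ-*MSS11* replicate 1, 2 rose and 3 fell without replicate 2, and 0 fell without wild-type replicate 1. In Σ1278b 0 fell without wild-type replicate 1 or 2μ-*MSS11* replicate 2, and 2 without wild-type replicate 2. In *mss11* 0 of the 14 passed by limma. For RNA polymerase I and its factors, *RRN11* and *RRN7* rose and *RRN9* fell in S288c, and *RPA49* and *RRN5* fell in Σ1278b, among 14 genes. In S288c 10 rose and 2 fell without 2μ-*MSS11* replicate 1, and 1 rose without either wild-type array. In Σ1278b 0 fell without wild-type replicate 1 or either array with 2μ-*MSS11*, and 5 without wild-type replicate 2.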

How the data were processed

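Per the labels and methods of the study, RNA of 16 cultures was hybridised to Affymetrix Yeast Genome 2.0 arrays, which the authors read with GCOS and processed by RMA (methods) or GCRMA (submitters' notes). The authors deposited 1 intensity value, on a linear scale, for each probe set and array. The number of arrays, 2 per condition, limits precision.

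Intensities were put on the log2 scale (floor 1, below every value). A mean per condition was fitted over all 16 arrays with limma 3.58.1 in R 4.3.3, with empirical Bayes moderation (8 residual and 1.5 prior degrees of freedom) and Benjamini-Hochberg adjustment over the 5498 *S. cerevisiae* probe sets (threshold 0.05), without replicate block. The fit was tested on simulated data. Gene symbols come from the platform's annotation. Members, lists and comparisons were chosen with earlier results of these data known. Named are the 5 largest called changes that do not overlap per direction and comparison, the 5 widest copy pairs per strain, up to 10 members that differ between strains, members of the roles described and up to 4 called genes of each other list. *RPS7B*, *RPL18B*, *RPL4B*, the cross-strain values of *RPS9A*, *RPS22B* and *RPL15*, and *LEU2*, *LYS2* and *HIS3* were chosen after their values were seen. So were members named as exceptions, at the ends of a range or among the counts of calls listed in full. Alternatives were quantile normalization, median centring, filters, other controls, other variance models, a replicate block and leaving out each array. Sequences were not used.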

Additional observations from a re-analysis of the deposited data

Results flagged for a closer look

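The following values were set apart because the change with 2μ-*MSS11* in S288c and in Σ1278b differed by limma's test of the difference itself. It passed for 55 ribosomal protein probe sets. The differences (S288c minus Σ1278b, log2) of the 10 largest were 1.86 for *RPS14B*, 1.86 for *RPS0B*, 1.16 for *RPL9A*, 1.13 for *RPL22B*, 1.11 for *RPL6B*, 1.10 for *RPL17B*, 1.08 for *RPS0A*, 0.99 for *RPS26B*, 0.99 for *RPL23A* and 0.97 for *RPS24B*. With a variance for each condition none of the 142 passed. The strains also differed in the **a**-specific genes and in the evenness of their replicates, and the part of either was not tested.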

How the results depend on the processing

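Counts are members called, S288c 2μ-*MSS11* and the difference between strains as higher and Σ1278b 2μ-*MSS11* as lower. In S288c the count was 38, and 0 with only its own arrays, 0 with a variance for each condition and 0 with a log2 change of at least 1. In Σ1278b it was 10, and 3 after quantile normalization, 3 after median centring, 4 with only its own arrays, 17 with an intensity trend and 1 with a log2 change of at least 1. Against *mss11* it was 28, and 18 after quantile normalization, 90 with a variance for each condition and 3 with a log2 change of at least 1. The difference between strains had 55, and 33 after quantile normalization, 36 after centring, 0 with a variance for each condition and 7 with a log2 change of at least 1. Between arrays titled *FLO8* and *flo8* 1 was called with only their own arrays. Wild type b against wild type had 24 after quantile normalization, 4 (median -0.36, reversed) after centring and 61 with a log2 change of at least 1. S288c against Σ1278b wild type had 61 after quantile normalization, 48 against wild type b after centring and 7 with a log2 change of at least 1.

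Controls of another array set carry that set's scale. Against them, Σ1278b 2μ-*MSS11* had 141 lower (1 with all 4 wild-type arrays), and after centring 15 lower and 61 higher (median 0.22, with *RPS14A* 0.58, *RPL6A* 0.31, *RPL30* 0.65 and the shared probe set of *RPL18B* 0.53), and *RPL15B* stood at -1.65. For *mss11* 140 were lower (median -0.88, or -0.41 with all 4), and 98 were called after centring. The arrays titled *FLO8* and *flo8* had 141 each (medians 0.94 and 0.96, or 0.47 and 0.47 with all 4), and 80 and 73 after centring. For S288c against wild type b *RPL15A* was -0.81 and *RPL15B* -1.245, or -0.32 with all 4 and -0.055 after centring.

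Replicate numbers were not treated as pairing the samples, since only 2 exist. With the replicate number as a block, 11 were called in S288c, 4 in Σ1278b, 11 against *mss11* and 30 for the difference between strains.

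Leaving out 1 array gave 2 to 107 in S288c, 0 to 12 in Σ1278b, 1 to 13 against *mss11*, 14 to 111 for the difference, 140 to 140 for wild type b and 64 to 107 for S288c against Σ1278b wild type, and 0 to 0 for *mss11* and for the arrays titled *FLO8* and *flo8*. Only 2 arrays per condition limit all of these, and the causes were not tested.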
